A study of Mus musculus with 26 samples.

Results

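Fgfr1op encodes a centrosomal protein, known in current nomenclature as Cep43, and it was the gene disrupted throughout the series. Its transcript and those of 7 centrosomal partners (Fopnl, Cep350, Cep19, Mapre1, Pcm1, Ofd1 and Dctn1) were followed in each of the 3 count tables. The genes were taken by symbol, in upper case for human, and all 8 were found among the 40481 genes of the mouse tables and the 55093 genes of the Caco-2 table. All 8 also passed the filter on low counts in every table.

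RNA was sequenced from 26 samples. Small intestinal spheroids, which are epithelial cultures grown in Matrigel, came from Fgfr1op KO and wild-type (WT) mice (4 libraries each), and both genotypes had received 250 nM hydroxytamoxifen and were at day 3 after it. Crypt-enriched small intestine came from Fgfr1op KO and WT mice (6 libraries each) at days 6 and 9, with tamoxifen named in the labels of both genotypes. The human colon cancer line Caco-2, which takes on features of small intestinal enterocytes in culture, carried a doxycycline-inducible vector with either the shFgfr1op hairpin or a non-targeting scramble hairpin (3 libraries each), at day 3 after doxycycline. The series' design text counts 4 mice per spheroid group and 3 mice per crypt group and day. Columns of the crypt table give no day, so both days were pooled within a genotype and the day adds to the spread. The promoter that drives the recombinase, the ages of the mice and the exons removed from Fgfr1op are not given in the sources used here. A gene-level count can include reads from exons that remain after the deletion, so Fgfr1op counts in KO libraries measure remaining transcript and not protein. Whether the Caco-2 libraries came from separate cultures is not labelled, and p-values there cover only the spread among those libraries, possibly technical.

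At the centrosome, centrioles are surrounded by material that nucleates microtubules, and appendages on the older centriole anchor microtubules and, in many cells, dock the primary cilium. Fgfr1op is known to bind Cep350 and Cep19 at the centriole, and Fopnl is a related protein that also helps cilia form. Mapre1 encodes EB1, which tracks growing microtubule ends, Dctn1 encodes the largest dynactin subunit, which links dynein to its cargo and binds EB1, and Pcm1 and Ofd1 are components of centriolar satellites, the granules that move around the centrosome.

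The promoters of the genes named here were taken from RefSeq (GRCm38.p6), where 6 of the 8 members matched, with 7 windows among them. The windows span 250 bases before to 50 after an annotated start. 4 motifs were searched on both strands, and capitals mark every match: the X-box bound by RFX factors, the CCAAT box (CCAAT), the GC box (GGGCGG) and the CHR of cell cycle genes (TTTGAA). The first set shows the 250 bases before the start of the targeted gene and of the partners that were higher in crypt KO or in shFgfr1op cells, and the last line shows the only member match to the X-box. Fgfr1op lies at chr17:8165268-8165517 on the plus strand, of which the last 17 bases are exonic in GENCODE M21. Mapre1 lies at chr2:153741037-153741286 on the plus strand, with 13 exonic bases. Dctn1 lies at chr6:83179339-83179588 on the plus strand, inside the gene upstream of a second start, with 3 exonic bases. The Cep19 stretch lies at chr16:32099795-32099824 on the plus strand, with 25 exonic bases, past the RefSeq start.
Fgfr1op: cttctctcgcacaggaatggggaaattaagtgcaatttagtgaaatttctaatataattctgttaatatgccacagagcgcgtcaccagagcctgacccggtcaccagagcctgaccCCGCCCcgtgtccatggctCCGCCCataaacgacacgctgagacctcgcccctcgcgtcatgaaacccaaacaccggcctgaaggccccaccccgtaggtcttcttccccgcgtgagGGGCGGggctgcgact
Mapre1: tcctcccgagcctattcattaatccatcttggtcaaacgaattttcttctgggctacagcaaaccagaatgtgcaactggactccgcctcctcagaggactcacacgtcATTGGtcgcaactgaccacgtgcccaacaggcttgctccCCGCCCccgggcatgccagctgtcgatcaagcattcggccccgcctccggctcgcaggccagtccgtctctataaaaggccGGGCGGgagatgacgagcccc
Dctn1: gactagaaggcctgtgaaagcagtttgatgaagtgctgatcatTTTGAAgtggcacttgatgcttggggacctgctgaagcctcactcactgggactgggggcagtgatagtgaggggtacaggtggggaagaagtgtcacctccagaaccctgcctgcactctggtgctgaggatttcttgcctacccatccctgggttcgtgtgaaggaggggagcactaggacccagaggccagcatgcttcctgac
Cep19: aaattgagagccttctGTTGCCTTGGGAAC

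Of all 32851 windows of that length, 0.451% held an X-box, 37.4% a CCAAT box, 35.7% a GC box and 17.9% a CHR. A match is a description of letters, not a bound site. The Fgfr1op window held 3 GC boxes and no match to the other motifs, the Mapre1 window held a CCAAT box and 2 GC boxes, and the Dctn1 window shown held a CHR match alone.

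Total counts ran from 44152608 to 67630241 in spheroid libraries, from 48068740 to 103352863 in crypt libraries and from 37281821 to 50965004 in Caco-2 libraries. Crypt KO libraries 4, 5 and 6 stood apart from the other 9 crypt libraries on the first principal component, which held 56% of the variance, and their Olfm4, a stem cell marker, was 8.37 to 22.4 CPM (counts scaled to a common library total) against 428 to 2000 CPM in the others. Whether these 3 were the KO libraries of 1 day cannot be told from the columns. Column names hold a number from 1 to 6 in each genotype and a further number, but no day. Leaving them out sets 3 KO libraries against 6 WT libraries of both days. Among cell type markers, the summed level of 14 immune genes was 398 to 2150 CPM in crypt KO and 1980 to 5280 CPM in crypt WT, against 9.99 to 16.1 CPM in spheroids of both genotypes. Epithelial genes (10) summed to 13200 to 25000 CPM in crypt KO and 8200 to 14300 CPM in crypt WT. The largest part of that sum was the keratin gene Krt19, with a mean of 8100 CPM in KO and 4130 CPM in WT. Log2 fold changes were above 0 for 9 of the 10 genes. Epcam (0.21) and Vil1 (-0.49) did not pass the edgeR test, so the sum does not give the epithelial share of a sample. The part of these differences in the results that follow was not tested. In bulk samples, fewer cells of a type and less RNA per cell cannot be told apart. Spheroid WT library 1 was the only spheroid library with high Xist (426 CPM), and crypt KO 6 and WT 6 were the only crypt libraries with low Xist (0.0544 and 0.157 CPM).

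In Caco-2, where CPM are scaled by TMM within the table, the targeted FGFR1OP transcript was 15.8, 15.9 and 15.5 CPM in the scramble libraries and 6.43, 6.78 and 7.26 CPM in the shFgfr1op libraries. All shFgfr1op libraries lay below all scramble libraries, as did those of 21.5% of the genes tested. FGFR1OP fell by 1.20 on the log2 scale (SE 0.0939), and its group mean fell by 56.5% (edgeR quasi-likelihood test, adjusted p = 1.65e-14).

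In crypt preparations, Fgfr1op ran from 11.7 to 25.9 CPM in the KO libraries (median 23) and from 25.2 to 39 CPM in the WT libraries (median 34.6). The groups met at their edges: KO library 4, at 25.9 CPM, lay above WT libraries 1 and 3, at 25.2 and 25.6 CPM, and the other 5 KO libraries lay below all WT libraries. The transcript fell by 0.65 on the log2 scale (SE 0.192), and its group mean fell by 36.1% (edgeR, adjusted p = 0.0261, exact two-sided permutation p = 0.00649). Without KO libraries 4, 5 and 6 it was lower by 0.855 on the log2 scale (SE 0.238, adjusted p = 0.0483). The call was lost in 2 of the 12 fits that left out 1 library, those without WT library 2 (adjusted p = 0.0528) and without WT library 6 (adjusted p = 0.0543).

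In spheroids, Fgfr1op was 17.5, 19.8, 15 and 17.2 CPM in the KO libraries and 23.5, 23.3, 24.4 and 21.7 CPM in the WT libraries. All KO libraries lay below all WT libraries, as did those of 4.02% of the genes tested. The mitochondrial share of counts also separated the spheroid genotypes, at 0.277 to 0.649% in KO and 0.688 to 0.802% in WT libraries, and its part in the spheroid results was not tested. The log2 fold change was -0.42 (SE 0.0946) and did not pass the test across all genes (edgeR, adjusted p = 0.117), while an exact two-sided permutation test gave p = 0.0286, which no split of 4 and 4 libraries can go below. With DESeq2 the adjusted p was 0.00533. The log2 fold change lay between -0.60 and -0.23 (95% interval).

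**Figure D1:**
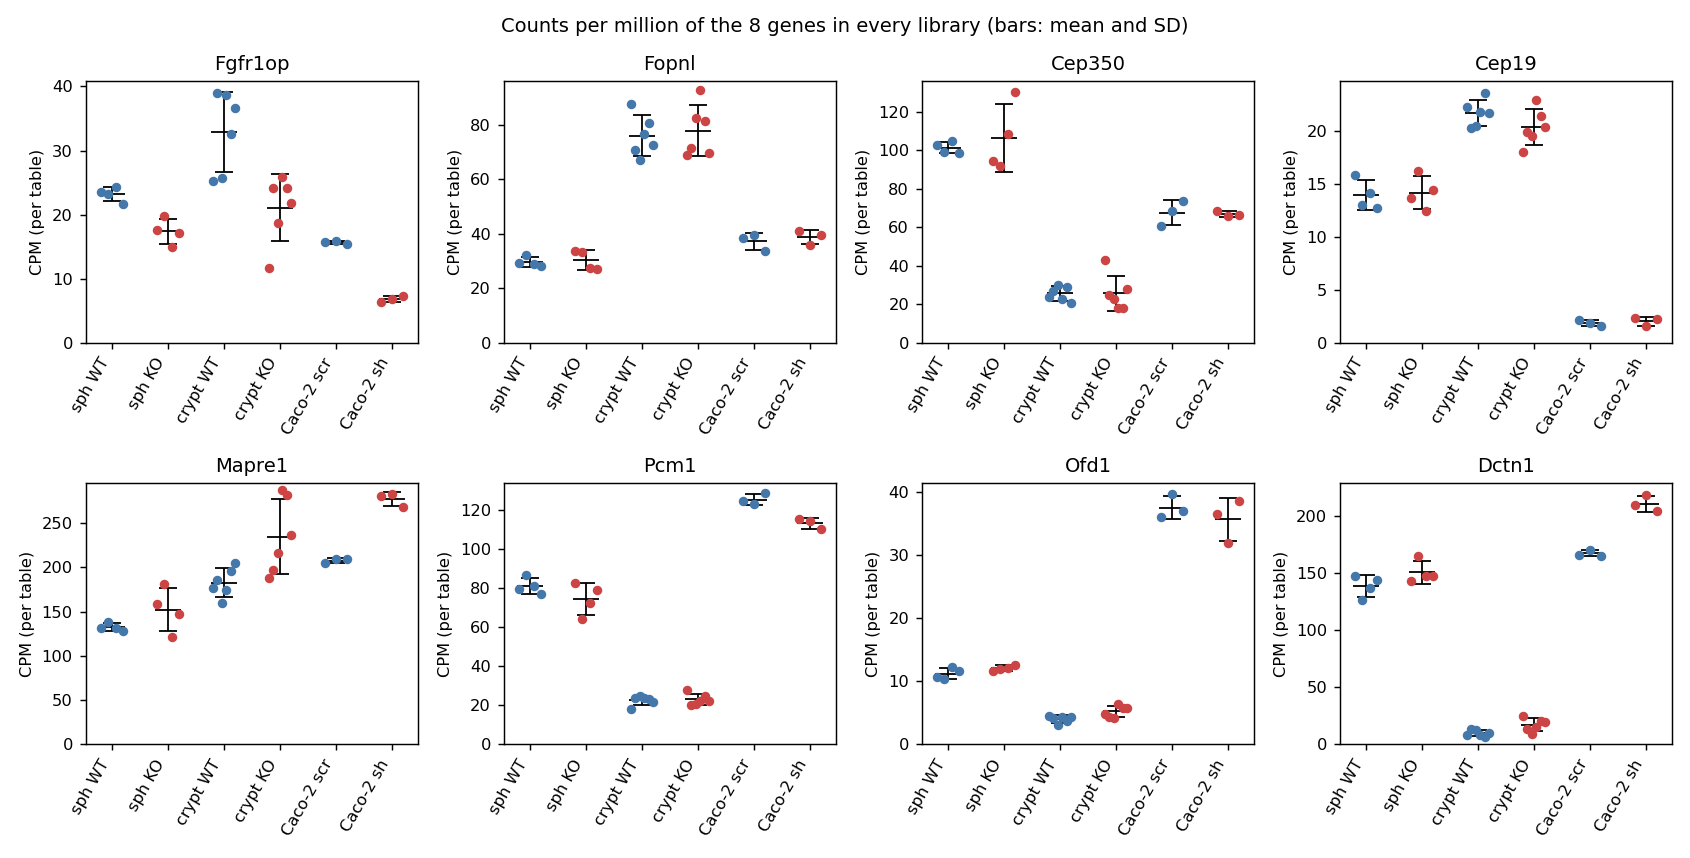
CPM (y axis, linear from 0) of each of the 8 genes in every library of the 6 groups, with blue for WT or scramble, red for KO or shFgfr1op, and bars for mean and SD; CPM were scaled within each table. Fgfr1op is lower in the red groups of every table, without overlap in spheroids and Caco-2 and with an overlap of 25.2 to 25.9 CPM in crypts.

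How far the other 7 genes moved when Fgfr1op was lost or reduced is set out next, by role. In Caco-2 a single Fgfr1op hairpin was set against a single scramble hairpin. Effects of that hairpin and of lower FGFR1OP cannot be told apart there. Called genes (adjusted p below 0.05) made up 0.232% of the genes tested in spheroids, 24.5% in crypts and 31.9% in Caco-2, and each count below is read against that. Of the 8 members, 0 were called in spheroids (edgeR; at an unadjusted p under 0.05, which 14.6% of genes reached, 1 was, Fgfr1op, and with DESeq2 1 was). In crypts 2 of 8 were called, Fgfr1op lower and Dctn1 higher, which is close to the background share. In Caco-2, 4 of 8 were called: FGFR1OP and PCM1 lower, and MAPRE1 and DCTN1 higher.

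The direct partners Cep350, Cep19 and the related Fopnl passed no test. Their log2 fold changes were 0.07, 0.03 and 0.03 in spheroids, 0.00, -0.09 and 0.03 in crypts, and -0.02, 0.11 and 0.06 in Caco-2. The approximate 95% interval for Cep350 ran from -0.13 to 0.27 in spheroids and from -0.39 to 0.40 in crypts. These intervals are not adjusted over the genes tested, so they do not give the smallest change that could pass. In Caco-2 CEP19 was low, at 1.63 to 2.17 CPM in scramble and 1.56 to 2.31 CPM in shFgfr1op libraries. The genes of Fopnl and of an antisense transcript share exon bases, and counting by strand is not stated.

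The plus-end protein Mapre1 was 205, 209 and 209 CPM in scramble and 280, 283 and 269 CPM in shFgfr1op Caco-2 cells. All shFgfr1op libraries lay above all scramble libraries, as did those of 20.8% of the genes tested. MAPRE1 rose by 0.42 on the log2 scale (SE 0.0322, edgeR adjusted p = 1.05e-14), or 33.6% by the group means. In crypts Mapre1 ran from 188 to 287 CPM in KO (median 226) and from 160 to 205 CPM in WT (median 181), and 4 of 6 KO libraries lay above all WT libraries. The log2 fold change of 0.36 (SE 0.132) did not pass the test (edgeR adjusted p = 0.0598). Libraries 4, 5 and 6, the ones that stood apart, held the 3 highest KO values (287, 282 and 236 CPM), and without them the log2 fold change was 0.135 (SE 0.146, adjusted p = 0.623). Mapre1 passed in crypts with limma voom (adjusted p = 0.00626) and with KO library 1 or KO library 2 left out (adjusted p = 0.0251 and 0.0474). In spheroids the KO libraries were 159, 181, 122 and 147 CPM and the WT libraries 132, 139, 132 and 128 CPM. KO library 3 lay below all WT libraries and the other 3 above all of them, and the log2 fold change of 0.20 (SE 0.104) did not pass (edgeR adjusted p = 0.409).

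Dctn1, the dynactin subunit, was 166, 170 and 165 CPM in scramble and 209, 218 and 205 CPM in shFgfr1op cells. All shFgfr1op libraries again lay above all scramble libraries, as did those of 20.8% of the genes tested. DCTN1 rose by 0.33 on the log2 scale (SE 0.034, edgeR adjusted p = 4.57e-11), or 26.1% by the group means. In crypts it was 25.3, 13.3, 9.57, 15.3, 20.4 and 20 CPM in KO libraries 1 to 6 and 8.61, 13.6, 13, 8.25, 6.57 and 10.3 CPM in WT libraries 1 to 6. The groups overlapped, with 4 of 6 KO libraries above all WT libraries and KO libraries 2 and 3 within the WT range. The log2 fold change was 0.78 (SE 0.242, edgeR adjusted p = 0.0305), and the call was lost without KO libraries 4, 5 and 6 (0.677, adjusted p = 0.183) and in 7 of the 12 fits that left out 1 library, namely KO 1, 5 or 6 or WT 1, 4, 5 or 6 (adjusted p up to 0.0814). In spheroids it was 143, 165, 147 and 147 CPM in KO and 148, 126, 137 and 144 CPM in WT, and the log2 fold change of 0.12 (SE 0.0719) did not pass (edgeR adjusted p = 0.475).

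The satellite scaffold PCM1 was 125, 123 and 128 CPM in scramble and 115, 114 and 110 CPM in shFgfr1op cells. All shFgfr1op libraries lay below all scramble libraries, as did those of 21.5% of the genes tested. PCM1 fell by 0.15 on the log2 scale (SE 0.037, edgeR adjusted p = 0.00145), while its group mean fell by 9.68%. In mouse the log2 fold changes were -0.12 (SE 0.0827) in spheroids and 0.03 (SE 0.126) in crypts, and neither passed. Ofd1, whose gene is on the X chromosome and shares exon bases with Trappc2, ran from 4.14 to 6.4 CPM in crypt KO and from 3.03 to 4.44 CPM in crypt WT. Its log2 fold change was 0.38 (SE 0.168, edgeR adjusted p = 0.113), and without KO libraries 4, 5 and 6 it was 0.154 (adjusted p = 0.715). With limma voom it passed (adjusted p = 0.0211). In Caco-2 the log2 fold change of OFD1 was -0.07 (SE 0.061), and it did not pass.

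**Figure D2:**
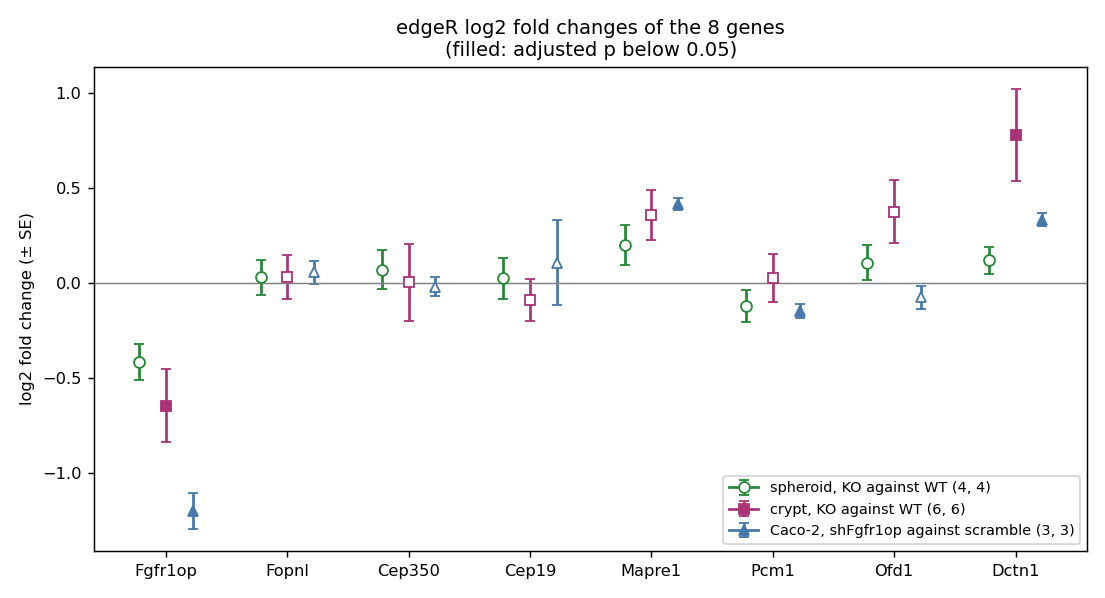
Log2 fold change with its SE (y axis) for the 8 genes (x axis) in spheroids, crypts and Caco-2, filled where the adjusted p was below 0.05. Fgfr1op is the only gene below 0 in all 3 comparisons, and Mapre1 and Dctn1 lie furthest above 0 in Caco-2.

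Whether the KO effect differed between crypts and spheroids was tested by the interaction in 1 fit of all 20 mouse libraries. Of the genes tested, 2.86% were called. None of the 8 members passed (edgeR; unadjusted p under 0.05, which 20.6% of genes reached, in 0 of 8, and 0 called with limma voom). For Dctn1 the difference in log2 fold change, crypt minus spheroid, was 0.61 (SE 0.31, adjusted p = 0.27), and for Fgfr1op it was -0.28 (SE 0.258, adjusted p = 0.581).

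The level of each member in the 2 kinds of WT mouse tissue was compared in the same fit, with crypt over spheroid as the direction. All 8 were called, where 81.7% of the genes tested were. Fopnl (log2 difference 1.90, SE 0.118), Cep19 (1.19, SE 0.114), Fgfr1op (1.05, SE 0.188) and Mapre1 (1.01, SE 0.138) were higher in crypts, and Dctn1 (-3.23, SE 0.224), Cep350 (-1.44, SE 0.191), Pcm1 (-1.30, SE 0.113) and Ofd1 (-0.93, SE 0.148) were lower. Dctn1 was 110 CPM in WT spheroids and 11.7 CPM in WT crypts on this common scale, 9.41-fold apart. Culture, preparation and library cannot be told apart in this comparison. Across all genes tested the median log2 difference ran from 1.41 for genes whose longest transcript was under 1000 bases to -1.08 for those over 8000 bases, so it moved with transcript length.

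**Figure D3:**
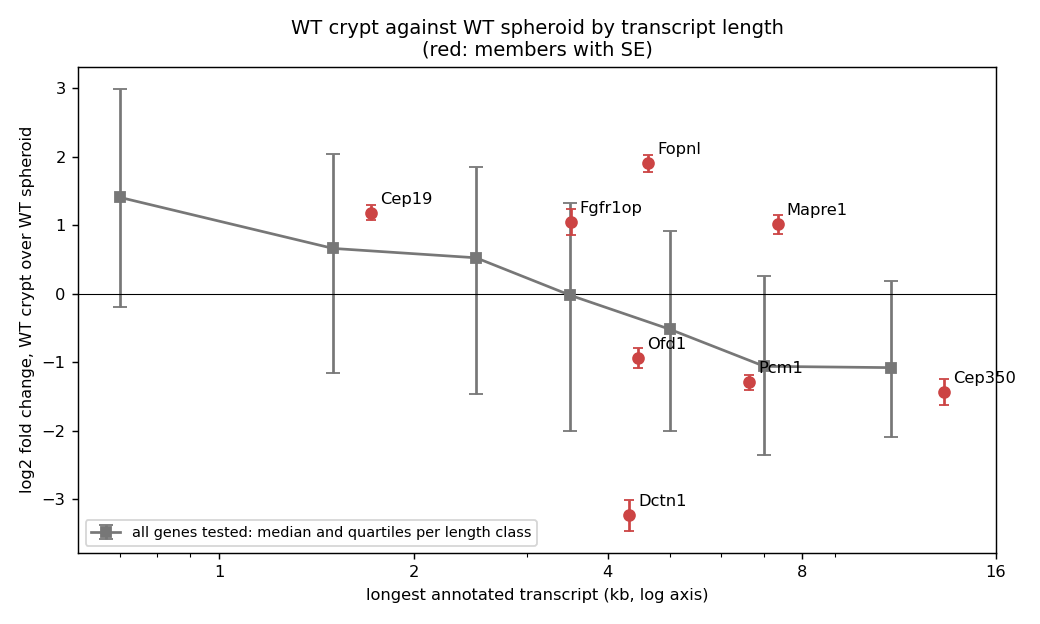
Log2 fold change of WT crypt over WT spheroid (y axis) against the length of the longest transcript (x axis, log scale, with each length class drawn at a point inside it), with medians and quartiles of all genes tested in grey and the members with SE in red. The medians fall from 1.41 to -1.08 with length; Mapre1 and Fopnl lie above, and Dctn1 below, the quartiles of their length class.

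Levels were compared between genes only per kilobase of exon. In WT crypts the order was Mapre1 (27.2 CPM per kb), Fopnl (15.2), Cep19 (14.4), Fgfr1op (9.54), Pcm1 (3.52), Cep350 (1.8), Dctn1 (1.8) and Ofd1 (1.05). Fopnl and Cep19, and Cep350 and Dctn1, overlapped between libraries and were not ordered beyond their spread. In WT spheroids Dctn1 led with 16.9 CPM per kb, ahead of Mapre1 with 13.5 and Pcm1 with 8.63, and Fgfr1op, at 4.6, overlapped both Cep350 and Fopnl. Ofd1 was lowest in both. By the length of the longest transcript in place of all exon bases, Dctn1 was 25.5 CPM per kb in WT spheroids, again ahead of Mapre1 (14.4), and in WT crypts it lay at 2.7 beside 2.23 for Cep350, with overlap between libraries. Fopnl (19.1) and Cep19 (14.6) did not overlap in WT crypts by that length.

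**Figure D4:**
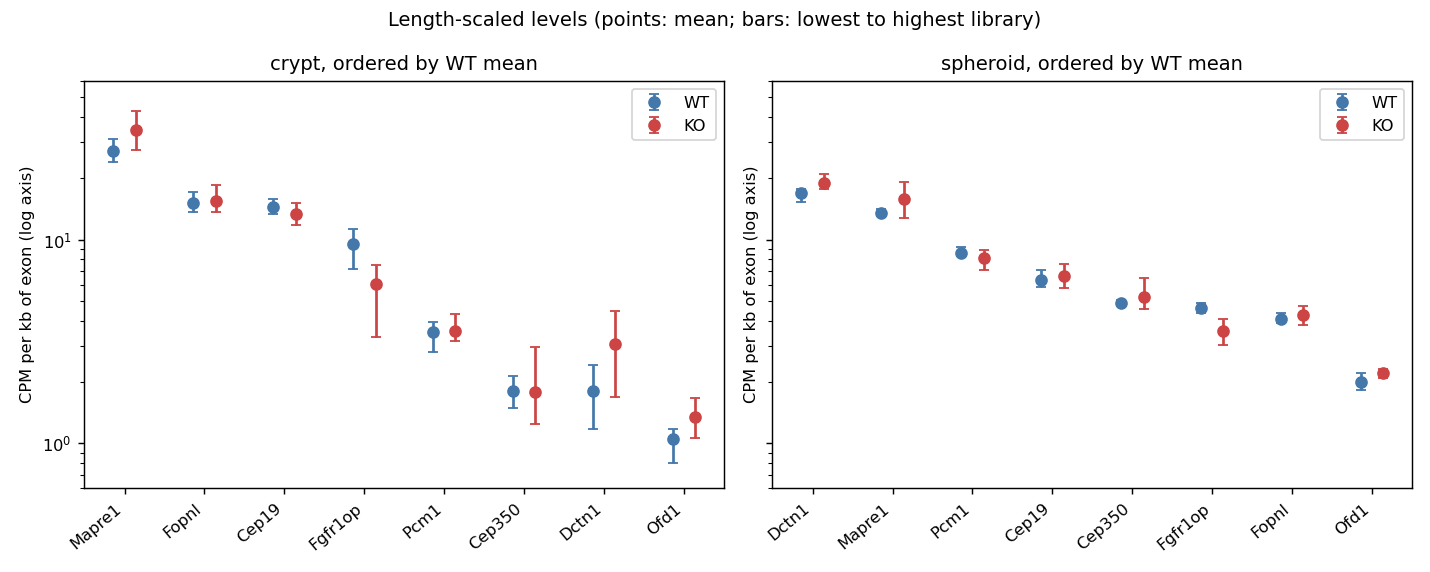
CPM per kilobase of exon (y axis, log scale) of the 8 genes in WT and KO libraries of each mouse tissue, ordered by the WT mean, with points for means and bars from the lowest to the highest library. Fgfr1op lies at 9.54 CPM per kb in WT crypts and 4.6 in WT spheroids.

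5 further lists of centrosomal genes were counted: dynactin subunits (11), plus-end proteins (14), satellite proteins (19), microtubule anchoring and nucleation (20) and early steps of cilium formation (25). In crypts 17 of the 86 tested rose and 8 fell, beside 14% higher and 10.5% lower over all genes. Without KO libraries 4, 5 and 6 only 2 were called, Mapre3 and Ccdc120, both higher. In Caco-2, 21 of 87 rose and 6 fell, beside 15.7% higher and 16.2% lower over all genes. In spheroids 0 of 88 were called (edgeR; with DESeq2, 6 were).

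Dynactin genes in crypts rose in 5 of 11 and fell in 0, with a median log2 fold change of 0.06 beside 0.06 over all genes. Dctn2, which holds the dynactin shoulder together, was 120 CPM in KO and 66.1 CPM in WT crypts (log2 fold change 0.85, SE 0.188, edgeR adjusted p = 0.00691). Actr1b, an actin-related filament subunit, was 204 and 109 CPM (0.90, SE 0.207, adjusted p = 0.00832). In Caco-2, 3 of 11 rose and 1 fell, with ACTR10, a subunit at the end of the dynactin filament, higher by 0.46 (SE 0.0575, adjusted p = 7.61e-09) and CAPZA2, an actin-capping subunit, by 0.22 (SE 0.0404, adjusted p = 2.31e-05). Neither Actr10 (-0.06, SE 0.13) nor Capza2 (0.01, SE 0.132) passed in crypts.

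Plus-end genes rose in 4 of 13 in crypts, with a median of 0.34, and none fell. Mapre3, another EB family member, was 2.78 CPM in KO and 0.911 CPM in WT (1.61, SE 0.367, edgeR adjusted p = 0.00806). All its KO libraries lay above all WT libraries, as did those of 4.9% of the genes tested. Macf1, a linker of actin and microtubules, was 21.7 and 9.23 CPM (1.23, SE 0.259, edgeR adjusted p = 0.0058). In Caco-2, 5 of 13 rose and 1 fell: CLIP1, which tracks growing ends, was higher by 0.17 (SE 0.0351, adjusted p = 0.000141), and CLIP2 was lower by 0.26 on the log2 scale (SE 0.0412, adjusted p = 2.24e-06).

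Anchoring and nucleation genes rose in 4 of 20 in crypts, and none fell. Ccdc120, which is part of the subdistal appendage group of proteins, was 13.3 CPM in KO and 3.49 CPM in WT crypts (1.92, SE 0.33, edgeR adjusted p = 0.00252). Its crypt KO libraries all lay above the WT libraries, as did those of 4.9% of the genes tested. Ccdc120 was 34.3 CPM in shFgfr1op and 28.5 CPM in scramble Caco-2 cells (0.27, SE 0.0599, edgeR adjusted p = 0.000336). In KO and WT spheroids it was 40.6 and 32.4 CPM and did not pass (0.33, SE 0.0802, edgeR adjusted p = 0.131). Satellite genes moved both ways in crypts, 2 of 18 higher and 2 lower, with Pibf1 at 22.4 and 10.4 CPM (1.11, SE 0.295, adjusted p = 0.0162) and Tbc1d31 at 14.7 and 22.6 CPM (-0.62, SE 0.168, adjusted p = 0.0171).

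Of the genes of cilium formation in crypts, 6 of 24 fell and 2 rose, with a median log2 fold change of -0.25 beside 0.06 over all genes. Ift52, a core subunit of intraflagellar transport, was 57.5 CPM in KO and 82.4 CPM in WT (-0.52, SE 0.117, edgeR adjusted p = 0.00759). All its KO libraries lay below all WT libraries, as did those of 5.71% of the genes tested. Cep83, a distal appendage protein, went the other way, at 15.3 and 9.1 CPM (0.75, SE 0.162, edgeR adjusted p = 0.00651). In Caco-2, 6 of 24 rose and 1 fell, and RAB8A, a small GTPase of ciliary membrane traffic, was higher by 0.30 (SE 0.0594, adjusted p = 7.97e-05). In crypts Rab8a went the other way and was among the genes that fell (-0.46, SE 0.146, edgeR adjusted p = 0.0339). The summed level of 20 cycling genes was 1590 to 2380 CPM in KO and 1200 to 2260 CPM in WT crypts, and that of 8 stem cell genes was 139 to 1130 CPM and 999 to 2290 CPM. Most of the stem cell sum was Olfm4 (mean 366 CPM in KO and 1390 CPM in WT), and none of the 8 stem cell genes passed the test in crypts, with log2 fold changes of 0.03 for Axin2 and 0.34 for Rnf43. In Caco-2, 7 enterocyte genes summed to 1040 to 1200 CPM in shFgfr1op and 1980 to 2020 CPM in scramble cells, stem cell genes to 350 to 357 and 254 to 262 CPM, and cycling genes to 3400 to 3550 and 3380 to 3470 CPM. Their part in the counts above was not tested. Dctn2, Actr1b, Mapre3, Macf1, Ccdc120, Pibf1, Tbc1d31, Ift52 and Cep83 were each called in crypts in all 12 fits that left out 1 library. They were named for the smallest p of their lists in this same test, so these fits are not separate support. Without KO libraries 4, 5 and 6 together, the log2 fold changes were 0.267 for Pibf1, 0.508 for Dctn2, 0.445 for Actr1b and 0.733 for Macf1. They were -0.343 for Tbc1d31, -0.468 for Ift52, 0.635 for Cep83, 1.078 for Ccdc120 and 1.795 for Mapre3. The counts over some lists moved with 1 library left out. The cilium count of 8 was 4 or 5 without KO library 4, 5 or 6 or WT library 5, the satellite count of 4 was 2 without KO library 4 or 5 or WT library 4 or 6, and the anchoring count of 4 was 2 without WT library 5. With no filter the cilium count was 5 and the anchoring count 2, and with limma voom the cilium count was 14 and the satellite count 7. The 2 genes called without KO libraries 4, 5 and 6 together, Mapre3 and Ccdc120, belong to the plus-end and anchoring lists.

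**Figure D5:**
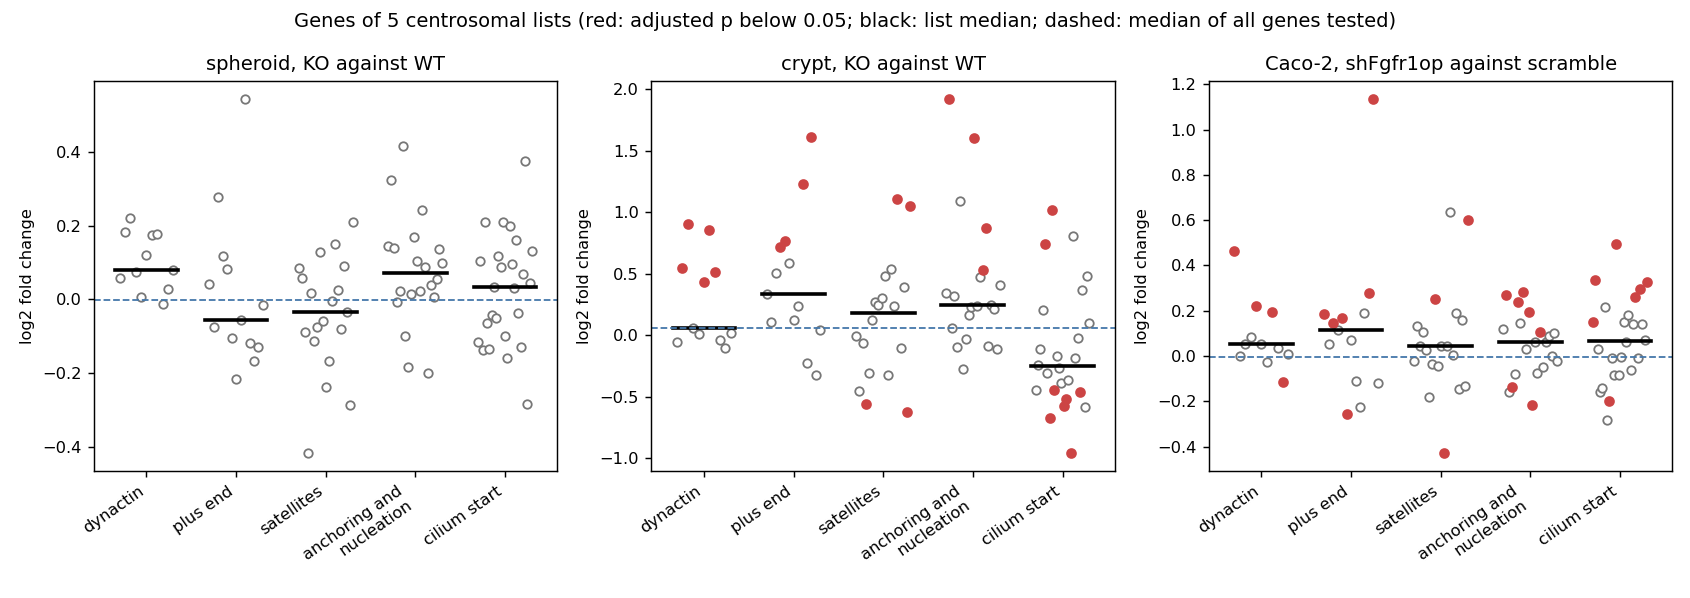
Log2 fold change (y axis) of each tested gene in 5 lists (x axis) for spheroids, crypts and Caco-2, red where the adjusted p was below 0.05, with the list median in black and the median of all genes tested dashed. Red points are absent in spheroids, and in crypts the cilium list is the one whose median (-0.25) lies below 0.

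The 3 protein-coding genes on each side of Fgfr1op (chr17:8165501-8196804, plus strand, GENCODE M21) were also read. Sft2d1, on the far side by 114297 bases, was 58.6 CPM in KO and 38.6 CPM in WT crypts (0.60, SE 0.127, edgeR adjusted p = 0.00596), and 26.7 and 26.5 CPM in spheroids (0.01, SE 0.0702). Without crypt KO libraries 4, 5 and 6 its log2 fold change was 0.45 (adjusted p = 0.109). The nearest neighbours, Rnaset2a (17403 bases before) and Ccr6 (39238 bases after), did not pass in crypts, and Ccr6 had 0 counts in every spheroid library. Rnaset2a has near-identical copies, so its value is uncertain.

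The genes whose pattern was most like that of Fgfr1op, by the mean of Pearson correlations of log2 CPM over the 8 spheroid and 12 crypt libraries among 8551 candidates, were Alg6 (0.85 and 0.88), Brd8 (0.85 and 0.85), Gfm2 (0.9 and 0.76), Nt5dc1 (0.88 and 0.77) and Slc25a12 (0.79 and 0.86). These libraries share genotype, depth and preparation, so the values describe likeness only. Over the 6 Caco-2 libraries the correlations with FGFR1OP were -0.57 for ALG6, 0.91 for BRD8, -0.31 for GFM2, -0.88 for NT5DC1 and -0.82 for SLC25A12, below 0 for all but BRD8. Among the members, Cep19 had the highest correlation with Fgfr1op in crypts (0.67) and Dctn1 the lowest (-0.61). In spheroids the range was from -0.52 for Ofd1 to 0.34 for Pcm1.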

How the data were processed

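The authors deposited 1 table of whole-number read counts per gene for each kind of sample, made with STAR against mm10 and used with DESeq2, per the submitters' processing notes. Versions, strand settings and the treatment of multiply mapped reads are not given in the sources used here. The Caco-2 table holds human identifiers with no build named. Repeated entries (276 in each mouse table, 116 in Caco-2) were removed. Spheroid columns were matched by title, crypt columns by genotype only, and Caco-2 columns by the last digits of the hairpin's catalogue number. Replicates of 1 group differed by more than sampling noise (chi-square per degree of freedom from 3.98 to 997), so no library was merged with another.

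Tests used edgeR 4.0.16 in R 4.3.3, with each table fitted separately apart from the joint mouse fit, by filterByExpr, TMM scaling, the robust quasi-likelihood F test and Benjamini-Hochberg adjustment over all genes tested, at a threshold of 0.05. The SE is the log2 fold change divided by the square root of F. The 95% intervals span 1.96 SE on each side, a normal quantile. They are approximate, and too narrow for groups this small. CPM are scaled by TMM within a table, and log2 CPM use a prior count of 2. In simulated crypt counts, 50 genes were raised 2-fold and 50 lowered to a fold of 0.5 among 16088 genes. Of those tested, 36% and 25% were recovered. Far fewer genes were changed there than the 4014 called in the real crypt libraries, and the adjustment depends on that number. These values therefore do not give the share recovered in the real crypt test.

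All 8 members are named. In each list the 2 genes of smallest p per comparison qualified, together with the 3 nearest genes on each side of Fgfr1op and the 5 genes most like it, and the text gives a selection of these. The members, lists and rules were chosen with earlier results of these data known. Promoter motifs were chosen after the values were seen. Alternatives were other scaling (RLE, upper quartile), no filter or at least 1 CPM, each library left out, DESeq2 1.42.0, limma 3.58.1 voom with quality weights, a log2 fold change of at least 1, the longest transcript for length scaling, a prior count of 0.5 for likeness, the replicate block and, added after the data were seen, leaving out crypt KO libraries 4, 5 and 6.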

Additional observations from a re-analysis of the deposited data

Results flagged for a closer look

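The KO effect differed between crypts and spheroids, by the interaction test of edgeR across 20 mouse libraries, for 4 of the 88 genes tested in the centrosomal lists (4.55%), beside 2.86% of all genes tested. Crypt minus spheroid, the difference in log2 fold change was 1.73 for Mapre3 (SE 0.47, adjusted p = 0.05 after rounding, just under the threshold), 1.55 for Ccdc120 (SE 0.417, adjusted p = 0.0483), 1.02 for Tubg2 (SE 0.269, adjusted p = 0.0453) and 0.76 for Cep83 (SE 0.202, adjusted p = 0.0453). Without crypt KO libraries 4, 5 and 6, none of the list genes was called. The count was also 0 without any single spheroid library, without crypt KO library 4 or 6 and without crypt WT library 3, 4 or 5, and it reached 8 without crypt KO library 3. It moved by over 1.5 times in 18 of the 20 fits that left out 1 library. No single library stood far from the others in 32 groups of 4 or 6 libraries tested over the members. That test looks for 1 extreme value in a group, so it cannot flag libraries that stand apart together, as crypt KO libraries 4, 5 and 6 did. The Caco-2 groups, of 3 libraries each, were not tested.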

How the results depend on the processing

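Leaving out crypt KO libraries 4, 5 and 6 lowered the crypt calls from 4014 to 924 (832 in both), those in members to 1 and in the pathway lists to 2, and the calls of the crypt and spheroid difference to 110 (lists 0). In spheroids 37 genes were called, against 154 with no filter, 581 with DESeq2 (member 1, lists 6, Fgfr1op -0.417 at adjusted p = 0.00533), 9 at a log2 fold change of at least 1 and 3 (without WT 3) to 160 (without KO 3) with 1 library left out. limma voom called 7208 crypt genes (members 4, lists 38), and the size rule left 1798 (members 0, lists 7, Fgfr1op -0.646) in crypts and 562 (member 1, list gene 1) in Caco-2. With 1 library left out, crypt members called ran from 0 (without WT 6) to 3 (without KO 2), and Fgfr1op in crypts from -0.739 to -0.522. For the difference, calls were 528, against 273 with no filter (lists 0), 1480 with DESeq2, 4778 with voom (lists 21) and 105 (without spheroid KO 1) to 1419 (without crypt KO 3) with 1 library left out (lists 0 to 8), and RLE gave 2 list genes. The cause was not tested.

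Sign changes were small and passed no test. In crypts Cep350 was -0.025 with RLE, DESeq2 or no filter, -0.194 with voom, -0.039 with upper-quartile factors and -0.006 at 1 CPM. Pcm1 was -0.003 with no filter, -0.012 with voom and -0.013 with upper-quartile factors. Fopnl was -0.007 with upper-quartile factors and -0.030 without KO libraries 4, 5 and 6, and in spheroids -0.011 with voom. In the difference, Fopnl was 0.079 with voom, and without those 3 libraries Cep350 was 0.110, Mapre1 -0.119 and Ofd1 -0.004. With 1 library left out, spheroid Fopnl ran from -0.021 to 0.082, Cep350 from -0.042 to 0.135 and Cep19 from -0.045 to 0.091. Crypt Fopnl ran from -0.026 to 0.067, Cep350 from -0.202 to 0.092 and Pcm1 from -0.056 to 0.061. Caco-2 FOPNL ran from -0.013 to 0.112, CEP350 from -0.089 to 0.047 and OFD1 from -0.129 to 0.002. In the difference Fopnl ran from -0.107 to 0.009 and Pcm1 from -0.014 to 0.144.

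Same-numbered libraries deviated together only weakly (correlations -0.03 to 0.098 in spheroids, 0.003 to 0.044 in Caco-2). The best match of shFgfr1op libraries 1 and 2, but not 3, was the scramble library of the same number, and in spheroids no best match was. No label says what a number marks, so the numbers were not taken as pairs, and these values do not settle whether they are. With the replicate block, 71 spheroid genes were called. No paired analysis was possible for crypts, where the labels number the mice from 1 to 3 within each day. The columns carry a number from 1 to 6, a further number and no day, and could not be matched to those label numbers.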
